A study of Mus musculus with 28 samples.

Results

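The genes described here are the core and accessory subunits of Polycomb repressive complex 2 (PRC2): Ezh1, Ezh2, Suz12, Eed, Jarid2, Mtf2, Phf19, Rbbp4 and Rbbp7. They were taken by symbol from the RNA-seq table, which held all 9 among its 55450 genes, and the contacts of their promoter fragments were added from the promoter capture Hi-C (PCHi-C) lists. All cells were C10, a mouse Pre-B line derived from HAFTL cells that carries a C/EBPαER transgene, so the 0h cells carry the transgene too. The line was brought to trans-differentiate into macrophages with 100 nM β-estradiol, 10 nM IL-3 and CSF-1, and was collected at 0h, 1h, 12h and 48h. There were 3 RNA libraries at each time point and 12 in all, and 1 PCHi-C list per time point into which the authors had merged 2 replicates. As a model it is a single cultured line in which a hormone-driven fusion protein starts the change, and time, hormone and cytokines cannot be told apart.

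PRC2 places methyl groups on lysine 27 of histone H3, a mark found over silenced developmental genes. Ezh2 and Ezh1 are the alternative catalytic subunits. Suz12 holds the complex together, Eed binds the finished mark and stimulates the enzyme, and Rbbp4 and Rbbp7 are histone-binding subunits that PRC2 shares with other chromatin complexes. Mtf2 and Phf19 are Polycomb-like proteins of one form of the complex, and Jarid2 belongs to the other form. Ezh2 is known to be abundant in dividing precursors, B cell precursors among them, and Ezh1 is known to be expressed also in cells that no longer divide.

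Levels are given as scaled TPM, that is, TPM divided by a median-of-ratios size factor for each library. TPM give a transcript's share of a library per transcript length, so levels can be compared between genes. CT010467.1 and AY036118, overlapping genes of a ribosomal RNA locus, took between 70.3% and 82.9% of the TPM of a library. Without scaling, the log2 fold changes had a median over all genes of 0.59 at 1h and −0.62 between 12h and 48h. The part of the 2 genes in these shifts was not tested. The scaling centres the bulk of the genes, so a change shared by most genes would be removed with it. On the values as deposited 3955 genes were called higher and 231 lower at 1h, against 892 and 800 after scaling, and 673 higher and 5205 lower between 12h and 48h, against 1740 and 1946. The log2 fold changes come from limma on log2(scaled TPM + 0.1) with all 12 libraries in 1 model. A gene was called higher or lower where its Benjamini-Hochberg adjusted p over the 16415 genes tested was under 0.05. The replicate 3 library of each time point stood apart from the other 2, with the smallest share of TPM in the 2 ribosomal genes and the most genes above 0, so the calls are also given from replicates 1 and 2 alone. All 9 PRC2 genes passed the filter on low values, a mean TPM of at least 0.1. The sequencing depth behind a TPM value cannot be read from the table, and in bulk RNA fewer cells that express a gene and less RNA per cell cannot be told apart. The cells carried the labelled identities: the summed TPM of 9 macrophage markers was between 6.59 and 7.45 at 0h and between 735 and 854 at 48h, and that of 9 Pre-B markers was between 279 and 314 at 0h and between 27.02 and 38.1 at 48h. Of the markers tested, 8 of 8 for macrophages were called higher at 48h and 8 of 9 for Pre-B cells lower. The 5 erythroid markers were listed at 0 in every library, and the summed TPM of the 5 T cell markers stayed between 0 and 0.53. That of the 7 neutrophil markers was at most 0.35 at 0h and 1h, between 8.32 and 13.7 at 12h and between 1.41 and 3.35 at 48h.

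At 48h, 6 of the 9 PRC2 genes were called lower than at 0h, 1 was called higher and 2 were not called. The share of all tested genes called lower in this comparison was 21.9%, and the share called higher was 24.6%. Ezh2, Suz12, Mtf2, Phf19, Rbbp4 and Rbbp7 fell, Ezh1 rose, and Eed and Jarid2 did not pass the test. The same 7 calls were made from replicates 1 and 2 alone. The median log2 fold change of the 9 genes was −1.44, against 0.076 over all genes tested. The levels of each gene in each library are shown first by role, beginning with the promoters of those whose change is described at most length.

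The promoter sequences of the 7 genes called at 48h are printed because the genes moved in opposite directions, with Ezh1 rising and the other 6 falling. Mtf2 has 2 annotated starts and so 2 sequences. They are RefSeq sequences on GRCm38.p6, the build of the PCHi-C lists (mm10), written 5′ to 3′ on the strand of the gene. Each run holds the 250 bases before the annotated start, except that of Ezh2, which holds 230 bases before it and 20 after it. Capitals mark a 7-base E2F-type motif, the kind of sequence bound by E2F factors at genes of the cell cycle, searched on both strands as TTCCCGC, with the variant TTGGCGC, the variant TTCGCGC or the variant TTGCCGC. The regions are chr11:101226464-101226713 (minus strand) for Ezh1, chr6:47595011-47595260 (minus strand) for Ezh2, chr11:79992856-79993105 (plus strand) for Suz12, chr5:108065424-108065673 and chr5:108077915-108078164 (plus strand) for Mtf2, chr2:34913977-34914226 (minus strand) for Phf19, chr4:129335371-129335620 (minus strand) for Rbbp4 and chrX:162760122-162760371 (plus strand) for Rbbp7.
Ezh1: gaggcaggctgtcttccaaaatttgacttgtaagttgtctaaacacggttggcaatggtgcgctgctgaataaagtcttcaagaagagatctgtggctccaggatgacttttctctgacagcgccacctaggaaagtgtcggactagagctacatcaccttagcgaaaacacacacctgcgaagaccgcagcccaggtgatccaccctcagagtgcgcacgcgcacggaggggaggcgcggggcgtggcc
Ezh2: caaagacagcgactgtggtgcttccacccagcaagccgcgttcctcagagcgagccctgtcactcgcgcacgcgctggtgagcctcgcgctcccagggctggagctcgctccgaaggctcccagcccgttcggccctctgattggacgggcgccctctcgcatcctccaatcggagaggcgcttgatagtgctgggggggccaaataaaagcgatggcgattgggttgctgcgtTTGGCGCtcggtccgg
Suz12: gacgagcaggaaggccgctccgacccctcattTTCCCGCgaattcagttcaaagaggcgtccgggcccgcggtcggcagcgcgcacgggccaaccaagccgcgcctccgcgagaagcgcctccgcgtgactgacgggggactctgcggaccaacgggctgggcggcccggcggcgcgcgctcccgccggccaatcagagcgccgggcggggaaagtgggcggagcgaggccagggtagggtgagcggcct
Mtf2, first start: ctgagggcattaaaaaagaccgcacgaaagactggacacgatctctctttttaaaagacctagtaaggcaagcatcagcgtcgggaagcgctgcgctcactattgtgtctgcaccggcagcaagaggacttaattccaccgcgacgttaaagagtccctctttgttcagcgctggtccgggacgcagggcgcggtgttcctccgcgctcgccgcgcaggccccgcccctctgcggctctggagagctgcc
Mtf2, second start: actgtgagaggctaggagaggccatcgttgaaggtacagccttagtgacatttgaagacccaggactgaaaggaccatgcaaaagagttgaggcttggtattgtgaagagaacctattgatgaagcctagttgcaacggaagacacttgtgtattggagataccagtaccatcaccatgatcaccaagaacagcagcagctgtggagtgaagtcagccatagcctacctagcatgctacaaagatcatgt
Phf19: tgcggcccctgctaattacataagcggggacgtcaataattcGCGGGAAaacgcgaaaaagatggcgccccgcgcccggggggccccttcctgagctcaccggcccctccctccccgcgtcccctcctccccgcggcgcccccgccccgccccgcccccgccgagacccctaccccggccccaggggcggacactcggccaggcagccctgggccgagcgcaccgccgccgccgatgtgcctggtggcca
Rbbp4: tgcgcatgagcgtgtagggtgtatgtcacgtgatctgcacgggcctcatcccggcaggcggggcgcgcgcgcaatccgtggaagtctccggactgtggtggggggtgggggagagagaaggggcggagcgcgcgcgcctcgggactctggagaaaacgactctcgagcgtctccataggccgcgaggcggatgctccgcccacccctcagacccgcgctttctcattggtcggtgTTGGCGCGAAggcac
Rbbp7: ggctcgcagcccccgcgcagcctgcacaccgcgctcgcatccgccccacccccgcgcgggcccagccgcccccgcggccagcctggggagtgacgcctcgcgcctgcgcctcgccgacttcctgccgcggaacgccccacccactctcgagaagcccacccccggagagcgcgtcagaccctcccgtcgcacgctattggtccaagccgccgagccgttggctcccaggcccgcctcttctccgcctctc

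The search covered windows from 250 bases before to 50 bases after each start, and RefSeq gave 11 such windows for the 9 genes, with 2 each for Jarid2 and Mtf2. Counted from 1 at the first transcribed base, and backwards from −1, the motif began at 5 in Ezh2, at −218 in Suz12, at −208 in Phf19 on the opposite strand, and at −15 and −12 in Rbbp4, where the matches overlap on opposite strands. So 4 of the 9 genes had a match. All 4 were among the 6 genes that fell, and the other 2 of these, Mtf2 and Rbbp7, had none. Of all 32851 promoter windows of this length, 9.57% held the motif. The CCAAT box, searched as CCAAT on both strands, was found in 7 of the 9 genes and in 37.4% of all windows. Its 7 genes included Eed and Jarid2, which were not called, and left out Phf19, which fell, and Ezh1, which rose. A gene with 2 windows was counted where either held a match, so these counts of genes are not the same measure as the shares of windows. Mtf2 had CCAAT only in the window of its second start. The windows of the PRC2 genes were between 45.7% and 75.7% G and C, with a median of 52.7% over all windows. A C/EBP-type motif, TTGCNNAA on both strands, was in none of the 11 windows and in 10.8% of all windows. The letters were chosen with the sequences in view, a match is not a binding site, and the absence of a match concerns these windows only.

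Among the catalytic subunits, Ezh1 was higher at 48h than at 0h, and Ezh2 rose at 1h and then fell. The scaled TPM of Ezh1 was 2.45, 2.18 and 1.91 in the 3 libraries at 0h, 1.27, 2.62 and 1.03 at 1h, 2.90, 3.18 and 2.64 at 12h, and 8.43, 7.42 and 5.17 at 48h. Each 48h library lay above all of the other 9 libraries, and the 0h and 1h libraries overlapped. The mean at 48h was 7.003 ± 1.67 (SD, n = 3) against 2.18 ± 0.27 (SD, n = 3) at 0h, a log2 fold change of 1.62 ± 0.30 (SE, limma adjusted p = 0.00102), or 3.07-fold. How the difference divided between the intervals depended on the scaling. The log2 fold change of Ezh1 was 0.40 ± 0.30 (limma adjusted p = 0.353) between 0h and 12h and 1.22 ± 0.30 (limma adjusted p = 0.0136) between 12h and 48h. With the TPM as deposited, without scaling, it was 0.72 (limma adjusted p = 0.123) in the first interval and 0.48 (limma adjusted p = 0.288) in the second. The call between 12h and 48h also missed the threshold without 12h replicate 3 (limma adjusted p = 0.0524) and without 48h replicate 1 (limma adjusted p = 0.0530).

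The scaled TPM of Ezh2 was 11.4, 16.9 and 13.9 at 0h, 24.05, 21.2 and 21.6 at 1h, 7.09, 7.24 and 6.94 at 12h, and 5.66, 4.43 and 3.36 at 48h. No library of one time point overlapped with a library of another. At 1h Ezh2 was the only PRC2 gene called higher than at 0h, where 5.43% of all genes tested were, with a log2 fold change of 0.68 ± 0.19 (SE, limma adjusted p = 0.0478). None was called lower, against 4.87% of all genes tested. This call sat at the threshold: over 23 alternatives the log2 fold change of Ezh2 at 1h stayed between 0.52 and 1.33, and its adjusted p lay between 0.000718 and 0.153 and was above 0.05 in 14. Leaving out any one library ended it, except 0h replicate 2, 48h replicate 1 and 48h replicate 3, and without 0h replicate 1 its limma adjusted p was 0.153. From replicates 1 and 2 alone it was 0.139. By 12h Ezh2 had fallen below its 0h level by 0.96 ± 0.19 on the log2 scale (SE, limma adjusted p = 0.00308). At 48h it was 3.12-fold lower than at 0h, with a log2 fold change of −1.64 ± 0.19 (SE, limma adjusted p = 3.28e-05).

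**Figure D1:**
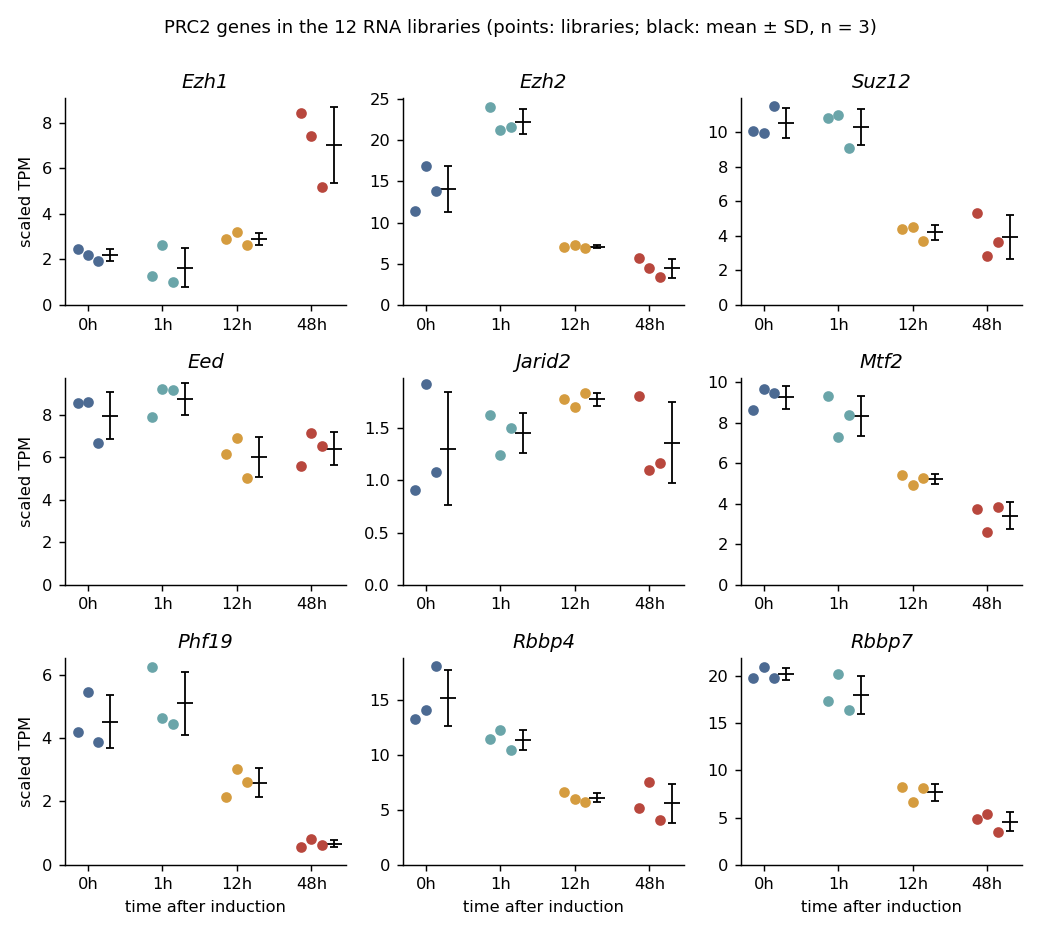
Scaled TPM (vertical axis, from 0) of the 9 PRC2 genes at 0h, 1h, 12h and 48h after induction. Points are single libraries and black marks are the mean ± SD of 3 libraries; Ezh1 lies between 5.17 and 8.43 at 48h, above its 0h libraries (1.91 to 2.45), and Ezh2, Suz12, Mtf2, Phf19, Rbbp4 and Rbbp7 end below their 0h range.

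The balance between the catalytic genes was reversed by 48h. Ezh1 made up 17.7%, 11.4% and 12.1% of the summed TPM of Ezh1 and Ezh2 in the 0h libraries, 4.999%, 11.01% and 4.54% at 1h, 29.0%, 30.5% and 27.5% at 12h, and 59.8%, 62.6% and 60.6% at 48h. On average the share was 13.7 ± 3.46% at 0h and 61.0 ± 1.44% at 48h (SD, n = 3). It is taken within a library, so it does not depend on the scaling between libraries. The ratio of Ezh1 to Ezh2 was 0.156 at 0h and 1.57 at 48h (geometric means), a 10.0-fold difference. Over the 4 time points the log2 ratio differed between time points (exact permutation p = 6.49e-05, which is the lowest possible for 12 libraries in 4 groups of 3, and adjusted p = 0.000325 over the 5 ratios compared). For 48h against 0h alone the two-sided exact permutation p was 0.1, the smallest that 3 against 3 allow, and all 3 ratios at 48h were above all 3 at 0h.

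The scaffold Suz12 fell between 1h and 12h. Its scaled TPM was 10.1, 9.94 and 11.5 at 0h, 10.8, 10.99 and 9.07 at 1h, 4.41, 4.50 and 3.70 at 12h, and 5.31, 2.82 and 3.63 at 48h. The 12h and 48h libraries overlapped with each other, and all 6 lay below the 6 earlier libraries. The log2 fold change was −1.30 ± 0.20 (SE, limma adjusted p = 0.000675) at 12h and −1.44 ± 0.20 (SE, limma adjusted p = 0.000147) at 48h. Between 12h and 48h it was −0.14 ± 0.20 (SE, limma adjusted p = 0.693), but with the TPM as deposited it was −0.87 and called lower (limma adjusted p = 0.00579).

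Eed, which reads the methyl mark, had the smallest log2 fold change at 48h among the core genes. Its scaled TPM was 8.54, 8.61 and 6.66 at 0h, 7.87, 9.19 and 9.14 at 1h, 6.15, 6.90 and 5.02 at 12h, and 5.58, 7.12 and 6.51 at 48h. The 48h libraries overlapped with the 0h libraries. The log2 fold change at 48h was −0.30 ± 0.16 (SE, limma adjusted p = 0.160), but with the TPM as deposited it was −0.71 and called lower (limma adjusted p = 0.0148). At 12h against 0h it was −0.40 ± 0.16 (SE, limma adjusted p = 0.0940), and without 0h replicate 3 it was −0.52 and called (limma adjusted p = 0.0467). The one call for Eed with all libraries and scaled TPM was between 1h and 12h, with a log2 fold change of −0.54 ± 0.16 (SE, limma adjusted p = 0.0410), and it was lost in 9 of 23 alternatives. Without 12h replicate 3 it had a log2 fold change of −0.41 (limma adjusted p = 0.132), and it was also lost without any one of the 1h libraries and without 12h replicate 1.

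The ratios of the core genes to Ezh2 changed over the time course. The ratio of Eed to Ezh2 was 0.568 at 0h, 0.392 after 1h, 0.842 after 12h and 1.45 after 48h (geometric means of 3 libraries), and the time points differed (exact permutation p = 0.000130, adjusted p = 0.000325). The ratio of Suz12 to Ezh2 was 0.755 at 0h, 0.461 after 1h, 0.591 after 12h and 0.865 after 48h (exact permutation p = 0.0206, adjusted p = 0.0206). That call was lost without 1h replicate 1 (adjusted p = 0.0594) or 1h replicate 3 (adjusted p = 0.0680) and from replicates 1 and 2 alone (adjusted p = 0.210), and the 48h and 0h libraries overlapped.

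Of the accessory subunits, the Polycomb-like genes fell and Jarid2 was not called. Phf19, which binds methylated lysine 36 of histone H3 and brings the complex to chromatin, had a scaled TPM of 4.19, 5.47 and 3.88 at 0h, 6.23, 4.62 and 4.43 at 1h, 2.15, 3.04 and 2.60 at 12h, and 0.576, 0.810 and 0.626 at 48h. Its 48h libraries lay below all others, and its fall was the largest of the 9 genes, 5.97-fold between 0h and 48h (log2 fold change −2.58 ± 0.21, SE, limma adjusted p = 1.90e-06). At 12h the log2 fold change of Phf19 was −0.77 ± 0.21 (SE, limma adjusted p = 0.0172), a call that was lost with the TPM as deposited (log2 fold change −0.45, limma adjusted p = 0.232) and without 0h replicate 2 (limma adjusted p = 0.0636) or 12h replicate 1 (limma adjusted p = 0.0668).

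Mtf2, the other Polycomb-like gene, had a scaled TPM of 8.59, 9.67 and 9.47 at 0h, 9.29, 7.29 and 8.36 at 1h, 5.41, 4.94 and 5.25 at 12h, and 3.76, 2.63 and 3.83 at 48h. The 12h libraries lay between those of 48h and those of 0h and 1h, with no overlap. The log2 fold change of Mtf2 was −0.82 ± 0.16 (SE, limma adjusted p = 0.00305) at 12h and −1.43 ± 0.16 (SE, limma adjusted p = 2.65e-05) at 48h. The 12h call was lost with the TPM as deposited (log2 fold change −0.49, limma adjusted p = 0.0806).

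Jarid2, which helps PRC2 to bind nucleosomes, had the lowest level at 0h. Its scaled TPM was 0.911, 1.92 and 1.08 at 0h, 1.62, 1.24 and 1.501 at 1h, 1.78, 1.71 and 1.84 at 12h, and 1.81, 1.10 and 1.17 at 48h. The 3 libraries of 0h spanned the values of the other 9. Its log2 fold change at 48h was 0.092 ± 0.27 (SE, limma adjusted p = 0.826), and its sign turned when 0h replicate 1, 0h replicate 3 or 48h replicate 1 was left out. At 12h it was 0.48 ± 0.27 (SE, limma adjusted p = 0.212), and without 0h replicate 2 it was 0.76 and called higher (limma adjusted p = 0.0433). With the TPM as deposited it was called higher at 1h (0.83, limma adjusted p = 0.0452) and at 12h (0.80, limma adjusted p = 0.0455). Between 12h and 48h it was then called lower (−1.09, limma adjusted p = 0.00887). Set against the sum of Mtf2 and Phf19, the TPM of Jarid2 gave a ratio of 0.0901 at 0h, 0.109 after 1h, 0.228 after 12h and 0.328 after 48h (exact permutation p = 0.000519, adjusted p = 0.000866), a 3.64-fold difference between 0h and 48h in which every 48h library was above every 0h library.

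The histone-binding subunits both fell, Rbbp7 further than Rbbp4. Rbbp7 had a scaled TPM of 19.8, 21.01 and 19.9 at 0h, 17.4, 20.2 and 16.4 at 1h, 8.20, 6.63 and 8.19 at 12h, and 4.85, 5.42 and 3.46 at 48h. It fell at both steps, by 1.39 ± 0.17 on the log2 scale between 0h and 12h (SE, limma adjusted p = 0.000116) and by 0.75 ± 0.17 between 12h and 48h (SE, limma adjusted p = 0.00839). Rbbp4 had a scaled TPM of 13.3, 14.1 and 18.1 at 0h, 11.5, 12.3 and 10.4 at 1h, 6.61, 6.0005 and 5.75 at 12h, and 5.15, 7.54 and 4.10 at 48h.

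The 12h and 48h libraries of Rbbp4 overlapped, and between them its log2 fold change was −0.17 ± 0.21 (SE, limma adjusted p = 0.621). With the TPM as deposited it was −0.91 and called lower (limma adjusted p = 0.00699). At 48h against 0h the log2 fold change was −1.45 ± 0.21 (SE, limma adjusted p = 0.000142) for Rbbp4 and −2.14 ± 0.17 (SE, limma adjusted p = 1.51e-06) for Rbbp7. The ratio of Rbbp4 to Rbbp7 was 0.743 at 0h, 0.634 after 1h, 0.801 after 12h and 1.21 after 48h, and the time points differed (exact permutation p = 0.00208, adjusted p = 0.00260). All 3 of the 48h ratios, 1.06, 1.39 and 1.18, were above 1, and all of the other 9 were below it.

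**Figure D2:**
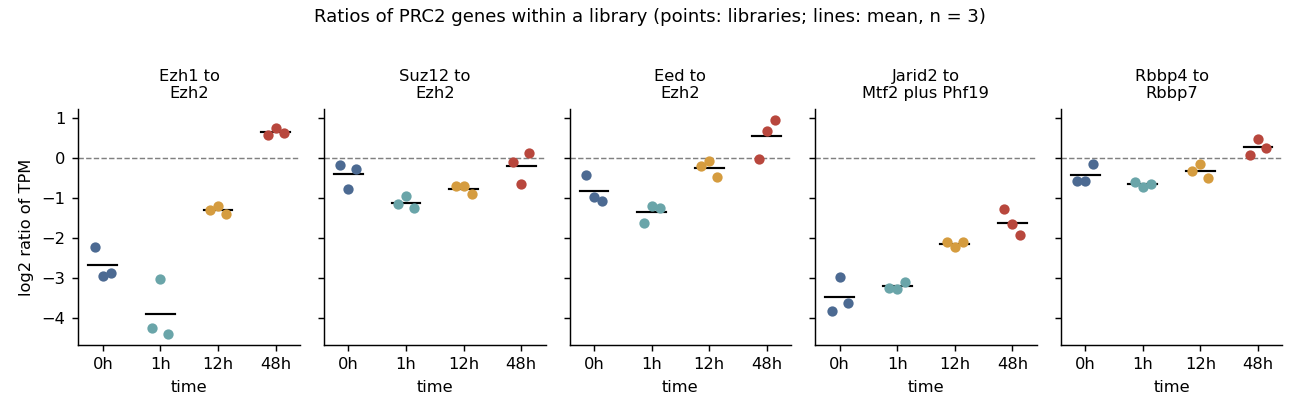
log2 ratio of TPM between PRC2 genes within each library (vertical axis; 0, dashed, is an equal level) at the 4 time points, with 3 libraries as points and their mean as a line. The ratio of Ezh1 to Ezh2 crosses 0 between 12h and 48h, and that of Suz12 to Ezh2 has overlapping 0h and 48h libraries.

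The order of the levels changed as well. At 0h, by mean scaled TPM, Rbbp7 (20.2) was followed by Rbbp4 (15.2), Ezh2 (14.1), Suz12 (10.5), Mtf2 (9.24), Eed (7.94), Phf19 (4.51), Ezh1 (2.18) and Jarid2 (1.304). Of the neighbours in this order, Rbbp4 and Ezh2, Ezh2 and Suz12, Mtf2 and Eed, and Ezh1 and Jarid2 overlapped between libraries, and the other 4 pairs did not. At 48h Ezh1 (7.003) came first, followed by Eed (6.40), Rbbp4 (5.60), Rbbp7 (4.58), Ezh2 (4.48), Suz12 (3.92), Mtf2 (3.41), Jarid2 (1.36) and Phf19 (0.670). From Ezh1 down to Mtf2 each gene overlapped with the next, and Mtf2, Jarid2 and Phf19 were apart.

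The 6 genes that fell by 48h were also the 6 called lower at 12h, where 14.4% of all genes tested were called lower and 16% higher. No PRC2 gene was called higher at 12h. Between 1h and 12h, 7 of the 9 were called lower (8.79% of all genes tested), which adds Eed, and none was called higher (11.3%). Ezh1 had a log2 fold change of 0.90 ± 0.30 in that interval (SE, limma adjusted p = 0.0596), and without 1h replicate 2 one of 1.27 that was called (limma adjusted p = 0.00457). Between 12h and 48h, Ezh2, Mtf2, Phf19 and Rbbp7 were called lower (11.9% of all genes tested) and Ezh1 higher (10.6%). With the TPM as deposited, 8 genes were called lower and none higher between 12h and 48h, and 5 were called higher at 1h. The number called lower between 12h and 48h was 2, Phf19 and Rbbp7, without 12h replicate 1, without 12h replicate 3 or without 48h replicate 2. Ezh2 lost its call in that interval also without 12h replicate 2 or 48h replicate 3, and Mtf2 lost that between 1h and 12h without 1h replicate 1 (limma adjusted p = 0.0559). From replicates 1 and 2 alone, 5 genes were called lower at 12h against 0h (not Phf19), 4 between 1h and 12h (Ezh2, Suz12, Rbbp4 and Rbbp7) and 1 between 12h and 48h (Phf19). The comparisons with 0h share the 0h libraries, and each neighbouring pair of intervals shares the libraries between them.

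**Figure D3:**
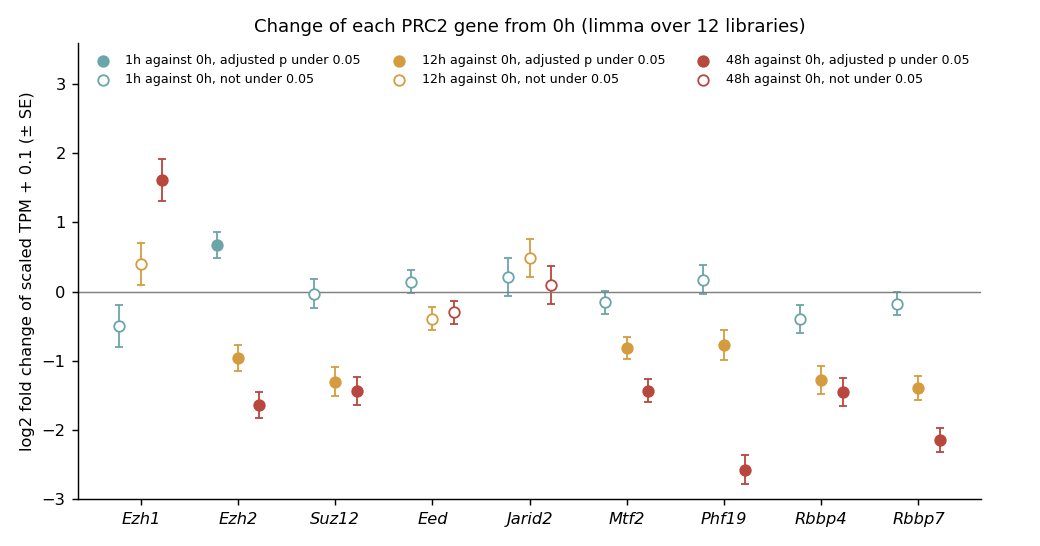
log2 fold change of scaled TPM + 0.1 against 0h (vertical axis, ± SE from limma over 12 libraries) for each PRC2 gene at 1h, 12h and 48h. Filled points have an adjusted p under 0.05: Ezh2 at 1h, 6 genes below 0 at 12h, and the same 6 below 0 with Ezh1 above 0 at 48h.

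The library kit does not mark strand, so reads from a gene and from one that overlaps it on the other strand cannot be told apart. Exons of the PRC2 genes overlapped those of opposite-strand genes over 2.61% of the exonic bases of Ezh2 (with Gm26625), 178 of the 4945 of Suz12 (Gm26563), 6.82% of those of Eed (E230029C05Rik), 6.93% of those of Mtf2 (Tmed5) and 5.98% of those of Rbbp7 (Txlng). For Rbbp4 these were 9.10% (Gm26722) and 8.94% (Sync). Tmed5 had a mean TPM of 8.76 over the 12 libraries and Txlng one of 1.72, and the other partners were at 0.518 or below.

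By Pearson correlation of log2(scaled TPM + 0.1) over the 12 libraries, the genes most like Ezh2 among 9322 others were Ppp1r15b (r = 0.974), Atad2 (0.969), Rfwd3 (0.969), Mms22l (0.966) and AC121821.1 (0.963). Those most like Ezh1 were Snx2 (r = 0.9702), AC166748.2 (0.963), Ascc3 (0.959), Tmem167b (0.956) and Cd53 (0.955). The 12 points form 4 time groups and share the scaling, so these values describe a likeness over the time course and have no p.

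The other genes of the Polycomb system were called in both directions at 48h, as were all genes tested (24.6% higher and 21.9% lower). Of 5 further PRC2 accessory genes tested, Phf1 and Lcor were called higher at 48h and Epop lower. Phf1, the third Polycomb-like gene, rose from a scaled TPM of 0.430 ± 0.12 at 0h to one of 0.894 ± 0.24 at 48h (SD, n = 3), while Mtf2 and Phf19 fell. Both calls for higher genes had adjusted p-values near the threshold (0.0452 for Phf1 and 0.0497 for Lcor by limma), and with the TPM as deposited none of the list was called higher and 2 were called lower. Epop, a PRC2 partner that binds elongin, had a log2 fold change of −1.67 ± 0.32 (SE, limma adjusted p = 0.00116), and Aebp2, of the Jarid2 form, one of −0.32 ± 0.14 (SE, limma adjusted p = 0.0910).

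Of the enzymes that remove the mark, Kdm6b was called lower at 48h, with a log2 fold change of −1.04 ± 0.19 (SE, limma adjusted p = 0.00105), and Kdm6a had one of 0.13 ± 0.27 (SE, limma adjusted p = 0.745). In PRC1, the complex that ubiquitinates histone H2A, 4 of 23 genes tested were called higher and 4 lower, where 24.6% and 21.9% of all genes tested were. Phc3, a Polyhomeotic subunit, rose by a log2 fold change of 2.07 ± 0.14 (limma adjusted p = 4.04e-07) and Pcgf5 by 1.99 ± 0.20 (limma adjusted p = 8.44e-06). L3mbtl2 and Cbx2, the latter a reader of methylated lysine 27, had log2 fold changes of −1.47 ± 0.22 and −1.42 ± 0.21 (SE, limma adjusted p = 0.000187 and 0.000224). With the TPM as deposited 3 genes of PRC1 were called higher and 8 lower. In PR-DUB, the complex that removes the ubiquitin, 3 of 7 genes were called higher and 2 lower, beside the same shares of all genes. As deposited the counts were 1 and 3. Mbd5 rose by 1.83 ± 0.27 and Asxl2 by 0.59 ± 0.13 on the log2 scale, and Foxk2 fell by 1.59 ± 0.19 and Foxk1 by 0.78 ± 0.24 (all SE, limma adjusted p between 3.51e-05 and 0.0216).

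Rbbp4, Rbbp7 or both also serve in other complexes, among them the chromatin assembly factor, deacetylase complexes and the DREAM complex of cell cycle genes. Of 24 other genes listed with complexes or partners of Rbbp4 or Rbbp7, 13 were called lower at 48h (21.9% of all genes tested) and 3 higher (24.6%). Their median log2 fold change was −0.57, against 0.076 over all genes tested. Chaf1a and Chaf1b, the other subunits of the chromatin assembly factor, fell most, by 3.51 ± 0.25 and 2.53 ± 0.24 on the log2 scale (SE, limma adjusted p = 7.06e-07 and 7.10e-06). Rb1, the retinoblastoma gene, rose by a log2 fold change of 1.62 ± 0.32 (SE, limma adjusted p = 0.00159) and Mbd2, a reader of methylated DNA, by 1.61 ± 0.16 (SE, limma adjusted p = 1.05e-05).

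Genes of DNA replication and proliferation moved with the 6 PRC2 genes that fell. All 16 were called lower at 48h (21.9% of all genes tested), with a median log2 fold change of −4.74. At 12h 14 of 16 were called lower (14.4% of all genes tested). At 1h, after scaling, 0 of 16 were called higher and 0 lower (5.43% and 4.87% of all genes tested). The median log2 fold change of the list was then −0.095, against 0.023 over all genes tested. The summed TPM of the 16 genes, as deposited and so without scaling, was between 256 and 316 at 0h, 374 and 445 at 1h, 70.5 and 89.5 at 12h, and 11.8 and 12.9 at 48h. Ccna2 fell by 6.81 ± 0.19 on the log2 scale (SE, limma adjusted p = 8.61e-10) and Cdk1, the mitotic kinase, by 6.97 ± 0.51 (SE, limma adjusted p = 7.99e-07). Phf19, the PRC2 gene with the largest fall, fell by 2.58 on the same scale. At 48h the scaled TPM was 0.035 ± 0.032 for Ccna2 and 0.14 ± 0.25 for Cdk1 (SD, n = 3), near the 0.1 that was added. The sizes of these 2 falls thus depend on the value added. The part of this list in the changes of the PRC2 genes was not tested.

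Among genes of methylation at histone H3 lysine 36 and at DNA, Nsd3 and Ash1l, both lysine 36 methyltransferases, rose by 1.53 ± 0.14 and 1.04 ± 0.18 on the log2 scale at 48h (SE, limma adjusted p = 5.39e-06 and 0.000692). Uhrf1 and Dnmt1, which maintain DNA methylation at replication, fell by 6.06 ± 0.22 and 2.83 ± 0.17 (SE, limma adjusted p = 4.00e-09 and 2.04e-07). In all, 3 of the 7 genes of this list were called higher (24.6% of all genes tested) and 3 lower (21.9%). Of 39 Hox genes, classical targets of PRC2, 6 passed the filter, all of the Hoxb cluster. At 48h against 0h none was called higher (24.6% of all genes tested) and 1, Hoxb8, lower (21.9%). Hoxb8 had a scaled TPM of 21.4 ± 2.46 at 0h, 2.77 ± 0.47 after 1h, 1.66 ± 0.070 after 12h and 4.07 ± 0.96 after 48h (SD, n = 3 each). Its fall was already there at 1h (log2 fold change −2.91 ± 0.19, SE, limma adjusted p = 5.35e-06). At 1h 4 of the 6 Hoxb genes were called lower (4.87% of all genes tested), and as deposited 3. Between 1h and 48h the median log2 fold change of the 6 was 1.33, against −0.017 over all genes tested. In this comparison 5 of the 6 were called higher after scaling, but only 1 as deposited, where 1339 of the 16415 genes tested were. Any part of PRC2 in these changes was not tested.

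**Figure D4:**
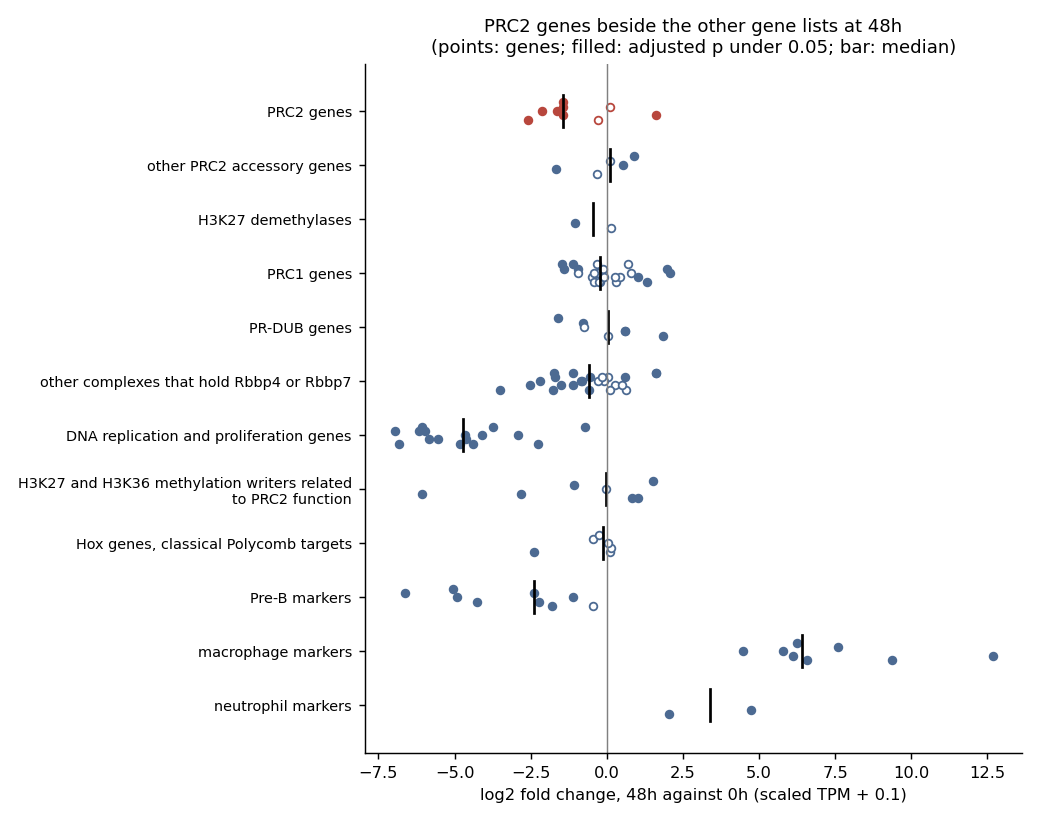
log2 fold change between 0h and 48h (horizontal axis, scaled TPM + 0.1) of each gene tested in the PRC2 list (red) and in the other lists (blue). Filled points have an adjusted p under 0.05 and black bars are medians; the replication genes have a median of −4.74, and the PRC2 genes spread from −2.58 to 1.62.

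PCHi-C ligates and sequences DNA fragments that lie close together in the nucleus and enriches pairs in which one fragment, the bait, holds a promoter. Each PRC2 gene had 1 bait with a transcription start site in it. The Eed bait also held a start of E230029C05Rik, that of Phf19 one of Gm13448 and that of Rbbp4 one of Zbtb8os, so those contacts cannot be assigned to one gene. A contact is a fragment that the authors list with the bait. Their stated cut-off is a CHiCAGO score, a measure of how far the reads exceed the background, of 5. The 0h list gives these scores, and the other 3 lists give whole numbers with no named unit, in which the cut-off cannot be checked. With 1 merged list per time point there are no replicates, and no test was made. The lists held 138769 interactions at 0h, 137836 after 1h, 131598 after 12h and 144072 after 48h.

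Together the 9 promoters had 118 contacts at 0h, 95 after 1h, 78 after 12h and 75 after 48h, all on the chromosome of the gene. Over 23193 genes with a bait the mean was 9.91 contacts per gene at 0h, 9.97 after 1h, 9.39 after 12h and 9.79 after 48h, and the median was 5 in each list. So the summed contacts of the PRC2 promoters were fewer at 48h than at 0h while the mean of all genes was nearly level. Suz12 and Eed changed most, by −13 each, and 4.47% of 21860 genes with a contact had a lower change. For the other PRC2 genes that percentage was between 12.2% (Mtf2) and 67.5% (Rbbp7). Between 0h and 48h the number was lower for Ezh1, Ezh2, Suz12, Eed, Mtf2, Phf19 and Rbbp4 and higher for Jarid2 and Rbbp7, so it was lower for Ezh1, which rose, as well as for genes that fell.

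Suz12 lost its listed contacts altogether. Its bait, chr11:79992288-79994030, holds the printed promoter and had 13 contacts at 0h, 4 after 1h, 1 after 12h and 0 after 48h. None of the 16 fragments listed at any time was listed at more than 2 time points. Their scores at 0h were between 5.42 and 8.64, and of all 0h interactions scored from 5 to under 9, 46.4% were listed again at 48h. Of the 3065 genes with 10 to 16 contacts at 0h, 0.457% had none at 48h, and their median was 11. Suz12 was picked out for this after its contacts were seen. The paper too gives Suz12 as an example of a promoter with significantly decreased interactions over the time course.

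The Ezh2 promoter, in the bait chr6:47589341-47599089, had 10 contacts at 0h, 10 after 1h, 8 after 12h and 7 after 48h. Of all its contacts, 5 were in all 4 lists. The one with the highest score at 0h, 16.67, was chr6:47646491-47650097, 54.1 kb upstream of the bait centre, with no annotated start site, and its neighbour chr6:47650098-47651891 was also in all 4 lists. Of the others, one lay in Ezh2 itself and one held starts of Cul1 and A930035D04Rik. The Ezh1 bait, chr11:101225741-101229242, had 14 contacts at 0h, 14 after 1h, 9 after 12h and 10 after 48h. Its 5 contacts in all lists included fragments with starts of Coasy, of Psme3, of Becn1 and Gm11617, and of Rundc1, Ptges3l and Gm27029.

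Eed and Phf19 had the most contacts. Eed had 31 at 0h, 18 after 1h, 12 after 12h and 18 after 48h, and Phf19 had 27, 21, 32 and 22. The 6 contacts of Eed in all 4 lists held starts of Picalm and 2310010J17Rik, Ccdc83, Ccdc89, Crebzf, Tmem126a and Gm44907, and Tmem126b and Dlg2, the farthest of them 498 kb upstream. The 10 contacts of Phf19 in all 4 lists formed a group between 30.0 and 64.2 kb upstream, with starts of Traf1 and Gm13450, a group between 192 and 201 kb upstream, with starts of AI182371 and Cntrl, and a fragment with a start of Hspa5 132 kb downstream. Phf19 had its most contacts at 12h, when its scaled TPM was already below that of 0h.

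The other promoters had fewer contacts. Mtf2 had 7 at 0h, 6 after 1h, 5 after 12h and 1 after 48h, and the last, a fragment with starts of Snord21 and Gm22270 157 kb upstream, was in all 4 lists. Rbbp4 had 10, 13, 7 and 8, of which 3 were in all 4 lists, with starts of Yars, Bsdc1 and Gm24621. Jarid2 had 4, 6, 2 and 5, and Rbbp7 had 2, 3, 2 and 4, with none in all 4 lists.

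Of the 118 contacts at 0h, 48.3% were listed again at 1h, 48.3% at 12h and 40.7% at 48h. Eed held 31 of the 118 and Phf19 27, many of them on neighbouring fragments. The contacts are thus not independent, and no interval is given. None of the 13 contacts of Suz12 was listed again at 48h. Over the contacts of all baits at 0h, counted in the same way, the shares listed again were 58.9%, 54.3% and 56.1%. Where a contacted fragment within 10 kb counted as the same contact, the shares for the PRC2 promoters were 75.4%, 78.8% and 65.3%, and those for the 161578 contacts of all baits at 0h were 80.3%, 75.9% and 74.5%. The 14 contacts with a 0h score of at least 10, which belonged to Eed, Phf19, Ezh2 and Rbbp4, were all listed at all 4 time points, against 87.4% of all such interactions listed again at 48h.

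**Figure D5:**
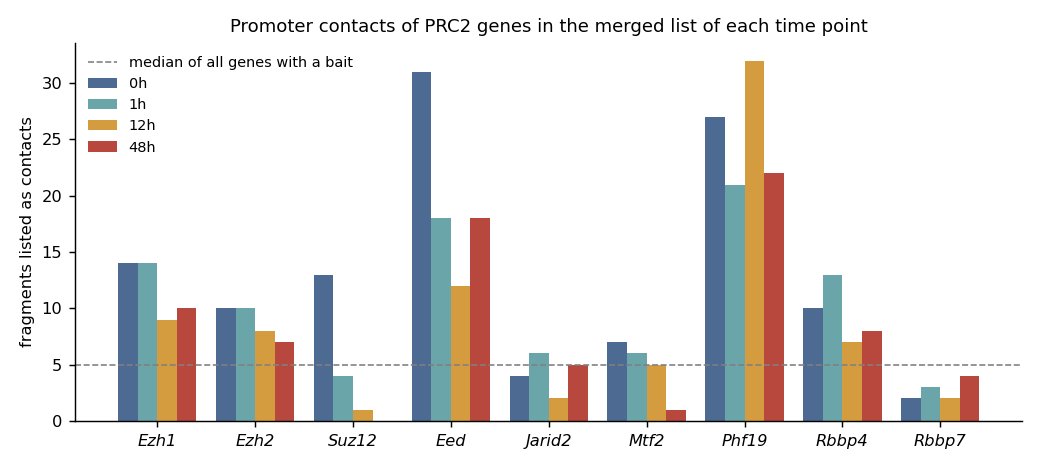
Number of fragments listed as contacts of each PRC2 promoter (vertical axis, from 0) in the merged list of each time point, with the median of all genes with a bait, 5, as a dashed line. Suz12 goes from 13 at 0h to 0 at 48h, Eed from 31 to 18, and Phf19 stays between 21 and 32.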

How the data were processed

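RNA was measured in 12 libraries and promoter capture Hi-C in 4 merged lists of C10 cells; Hi-C was not used here. RNA-seq reads had been depleted of ribosomal RNA, trimmed (Trim Galore 0.6.2) and mapped to mm10 (HISAT2 2.1.0), with technical replicates merged, and the authors deposited TPM made with RSEM. The deposited 0h interaction list holds CHiCAGO scores. In the other 3 deposited lists the values are whole and their unit is not named (taken as counts of read pairs), and only the presence of an interaction in them was used.

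TPM were divided by median-of-ratios size factors (means of 0.932 at 0h, 1.47 after 1h, 1.18 after 12h and 0.697 after 48h), and log2(scaled TPM + 0.1) was fitted with limma 3.58.1 in R 4.3.3 with a mean-variance trend. A fold change on this scale understates the change of low genes. TPM keep no depth, so no counting error can be given for them. The authors used DESeq2 on counts, which were not analysed here. The samples are biological replicates by their titles, and no pair looked like 1 library deposited again: of the genes above 0 in either library of a pair, at least 97.8% had unequal TPM. Ratios were compared by exact permutation tests, p-values adjusted by the Benjamini-Hochberg method over 5 ratios. Contacts were counted over baits that hold a GENCODE M21 start site. Python 3.11.15 was used with scipy 1.17.1, numpy 2.4.6, pandas 2.3.3 and matplotlib 3.10.9 for the rest.

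The fit and the permutation test were tested on simulated data. Genes outside the PRC2 list are named where they are the 2 called genes with the largest rise and the 2 with the largest fall at 48h in a list (at a mean TPM of 1 or more in the 6 libraries), the 5 most like Ezh1 or Ezh2, or have a start in a fragment contacted at all 4 time points. Phf1, Epop, Aebp2, Kdm6a and partners on the opposite strand were named after their values were seen, and so was the motif chosen. The PRC2 genes and all lists were chosen with earlier results of these data known. Alternatives varied the scaling, the pseudocount, the filter, the trend, which libraries were fitted, the replicates, the replicate block, the fold threshold and the definition of a contact. A fit of replicates 1 and 2 of each time point alone was added after the data were seen.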

Additional observations from a re-analysis of the deposited data

How the results depend on the processing

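Of the 26 called changes of PRC2 genes, 16 were called under all 23 alternatives and none turned direction. The 7 calls of 48h against 0h were among the 16, and their count was 1 higher and 6 lower whichever library was left out. The count of 1 gene higher at 1h became 5 with the TPM as deposited, and 0 when scaled to the total without the 20 most abundant genes, with no filter, with no trend or with a log2 fold change beyond 1, and 0 to 1 with each library left out. Higher genes at 12h became 1 as deposited and 0 to 1 with a library left out. Lower genes with a log2 fold change beyond 1 numbered 3 at 12h, 3 between 1h and 12h and 1 between 12h and 48h. Between 1h and 12h the count of higher genes was 1 with a mean TPM of at least 1, and 0 to 1 with a library left out. Between 12h and 48h the count of higher genes was 0 as deposited or without the 20 most abundant genes, and 0 to 1 with a library left out. In that interval the count of lower genes was 8 as deposited, 1 with only the 6 libraries compared, and 2 to 4 with a library left out. The cause of these shifts was not tested.

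Same-numbered libraries correlated by −0.011 to 0.26 in their deviations from the group means. Under the criterion used, a correlation over 0.1 in every pair, they were not taken as paired, but the 4 replicate 3 libraries did deviate together. Their 6 correlations were 0.081 to 0.26, 5 of them over 0.1, and those with libraries of another number were −0.18 to −0.0089. All 4 correlated best with their own number, against 3 of 4 for replicate 1 and 0 of 4 for replicate 2. The labels name no batch. With the replicate block, 0 PRC2 genes were called higher at 1h (Ezh2, adjusted p = 0.0542 by limma) and 1 between 1h and 12h (Ezh1, adjusted p = 0.0306 by limma), and no other count changed. The log2 ratio of Ezh1 to Ezh2 differed by 3.32 between 48h and 0h. The block does not enter this difference and bears only on the permutation p. The ratio calls held under every alternative except that of Suz12 to Ezh2, whose log2 difference was 0.014 to 0.42 with a library left out. From replicates 1 and 2 alone, an alternative added after the data were seen, that difference was 0.10 and lost its call, 0 PRC2 genes were higher at 1h, 4 were lower between 1h and 12h and 1 was lower between 12h and 48h, and over all genes 541 were higher and 435 lower at 1h, against 892 and 800.

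Some log2 fold changes that were not called turned sign. As deposited these were 0.13 for Ezh1, 0.62 for Suz12, 0.50 for Mtf2, 0.26 for Rbbp4 and 0.48 for Rbbp7 at 1h, −0.29 for Jarid2 at 48h, −0.029 for Jarid2 between 1h and 12h and −0.65 for Eed between 12h and 48h. Without the 20 most abundant genes they were 0.14 for Suz12 and 0.011 for Mtf2 at 1h and −0.10 for Eed between 12h and 48h. With quantile normalization they were 0.12 for Suz12 and 0.041 for Rbbp7 at 1h. Suz12 at 1h was 0.027 with a mean TPM of at least 1 and 0.029 with only the 6 libraries compared. From replicates 1 and 2 alone they were 0.12 for Suz12 and −0.012 for Eed at 1h and −0.047 for Eed between 12h and 48h. With a library left out, the ranges were −0.085 to 0.052 for Suz12 and −0.0062 to 0.50 for Jarid2 at 1h, −0.13 to 0.38 for Jarid2 at 48h, and −0.37 to 0.069 for Suz12, −0.031 to 0.20 for Eed and −0.40 to 0.029 for Rbbp4 between 12h and 48h.

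The share of 0h contacts listed again within 10 kb was 75.4% after 1h, 78.8% after 12h and 65.3% after 48h (80.3%, 75.9% and 74.5% for all baits), and 100% at each for a 0h score of at least 10, where 14 contacts remain. With 3 libraries per time point and no depth, small changes of low genes such as Jarid2 cannot be separated from replicate error.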
